A study of Drosophila melanogaster with 12 samples.

Results

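Neutral lipases cleave the ester bonds of triacylglycerol and sterol esters. In *Drosophila* many of them are secreted enzymes, and several are made by the midgut, where they release fatty acids, monoacylglycerol and sterols from food before uptake by the enterocytes. Members of the pancreatic lipase-type family resemble the triglyceride lipases that the mammalian pancreas secretes, and members of the acid lipase-type family resemble the mammalian lysosomal and gastric lipases. They differ from Brummer (BMM), the lipase of the lipid droplet that was overexpressed in these flies, which acts on stored fat inside cells.

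The genes described here were a list of 10 symbols, found as rows of the same name in the deposited counts and scaled counts. *mag* and *CG5932* are names of the same gene, so the list held 9 genes of the 17807 in the count table. The list was chosen by results of these same libraries, that is, by differences between genotypes and between sexes, so the values of its genes are given as a description and without p-values. Of the 9 genes, *CG6295*, *CG6277* and *CG6271* belong to the pancreatic lipase-type family, and *mag*, *Lip3*, *Lip4*, *CG8093*, *CG31089* and *CG31091* to the acid lipase-type family.

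RNA came from whole adult flies that carried *da-GAL4* and *UAS-bmm* (*bmm* overexpression) or *da-GAL4* alone over a wild-type chromosome (control), in males and in females, with 3 libraries per group and 20 flies per library. The *daughterless* driver is active in all tissues and from early development, all lines had been backcrossed to *w1118*, and every group carried the driver while only the *bmm* overexpression flies carried the transgene. All flies had time to mate before the sexes were separated, and were kept on a sucrose and yeast medium. Their age at freezing is not given in the sources used here. Levels are given as scaled counts (CPM), the count of a gene divided by 1 factor per library, and comparisons between genes use CPM per kb of exon. Since whole flies were sequenced, more RNA per cell and more cells of the tissue that makes it cannot be told apart.

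Library totals ranged between 20068187 and 34799635 counts, so that 3 counts stood for between 0.0798 and 0.156 CPM. *bmm* averaged 11241 CPM in *bmm* overexpression males, against 300.1 CPM in control males, and 4791 CPM in *bmm* overexpression females, against 139 CPM in control females (two-sided exact permutation test, p = 0.1 in males and in females, which is the lowest value possible with 3 against 3 libraries). Control male replicates 1, 2 and 3 had 474, 234 and 192 CPM of *bmm*, so that replicate 1 stood above the others. RNA of yolk, vitelline membrane and chorion genes, which mark eggs, was found in male libraries. Measured as the median ratio of 24 such genes to their mean in *bmm* overexpression females, it amounted to 5.59%, 1.31% and 0.668% in control male replicates 1, 2 and 3, and to between 0.147% and 0.206% in *bmm* overexpression males. Control male replicate 1 was thus the highest of the control males in egg RNA as well as in *bmm*, and a link between these values was not tested. Of those egg genes, 23 of 23 tested were called lower in *bmm* overexpression males than in control males, where 1.25% of the 13632 genes tested were. A call here needed an adjusted p under 0.05 by edgeR's exact test and a log2 fold change over 1 in size.

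*CG6295* was the most abundant of the 9 genes in every group by its mean, when levels were compared per length of exon. It averaged 43.4 CPM per kb in *bmm* overexpression males, 76.9 CPM per kb in control males, 311 CPM per kb in *bmm* overexpression females and 414 CPM per kb in control females. Its share of the summed CPM per kb of the 9 genes was 25.4% and 32.7% in males of these genotypes, and 66.3% and 73.5% in females. *Lip4* held the next largest share after *CG6295* in *bmm* overexpression males, 22.1%, against 9.98% in control males, where *CG8093* (19.2%) and *CG6277* (17.1%) came next. In females *mag* came next, with 10.3% under *bmm* overexpression and 13.4% in controls. In *bmm* overexpression male replicate 2, *Lip4* (40.6 CPM per kb) stood above *CG6295* (38.7 CPM per kb). *Lip3*, *CG6271* and *CG31089* were the scarce members. *CG6271* had no more than 16 counts in any female library and no more than 65 in any male library.

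With *bmm* overexpression, *CG31089* and *CG8093* were lower in males and higher in females, *Lip4* was higher in both sexes, and *CG6295* and *mag* were lower in both. A gene was called differentially expressed where edgeR's exact test within a sex gave an adjusted p under 0.05 and the log2 fold change was over 1 in size. In males, all 9 genes were tested and 2 were called, *Lip3* and *CG31089*, both lower, where 1.5% of the 13632 genes tested were called. In females, 8 of the 9 were tested, *CG6271* being too scarce, and 2 were called, *CG8093* and *CG31089*, both higher, where 1.41% of 10488 genes were called. Under the adjusted p alone, 7 of the 9 passed in males (6 lower, 1 higher) and 5 of the 8 in females (3 higher, 2 lower), against 4.31% and 14.2% of all genes. By edgeR's quasi-likelihood test of the same counts, *mag*, *Lip3* and *CG31091* did not pass it in males, nor *mag* and *CG6295* in females. The median log2 fold change was −0.80 over the members tested in males and 0.49 in females, and −0.01 over all genes tested in each sex. Since the list was chosen on these contrasts, the shares describe the list and nothing is read from them.

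**Figure D1:**
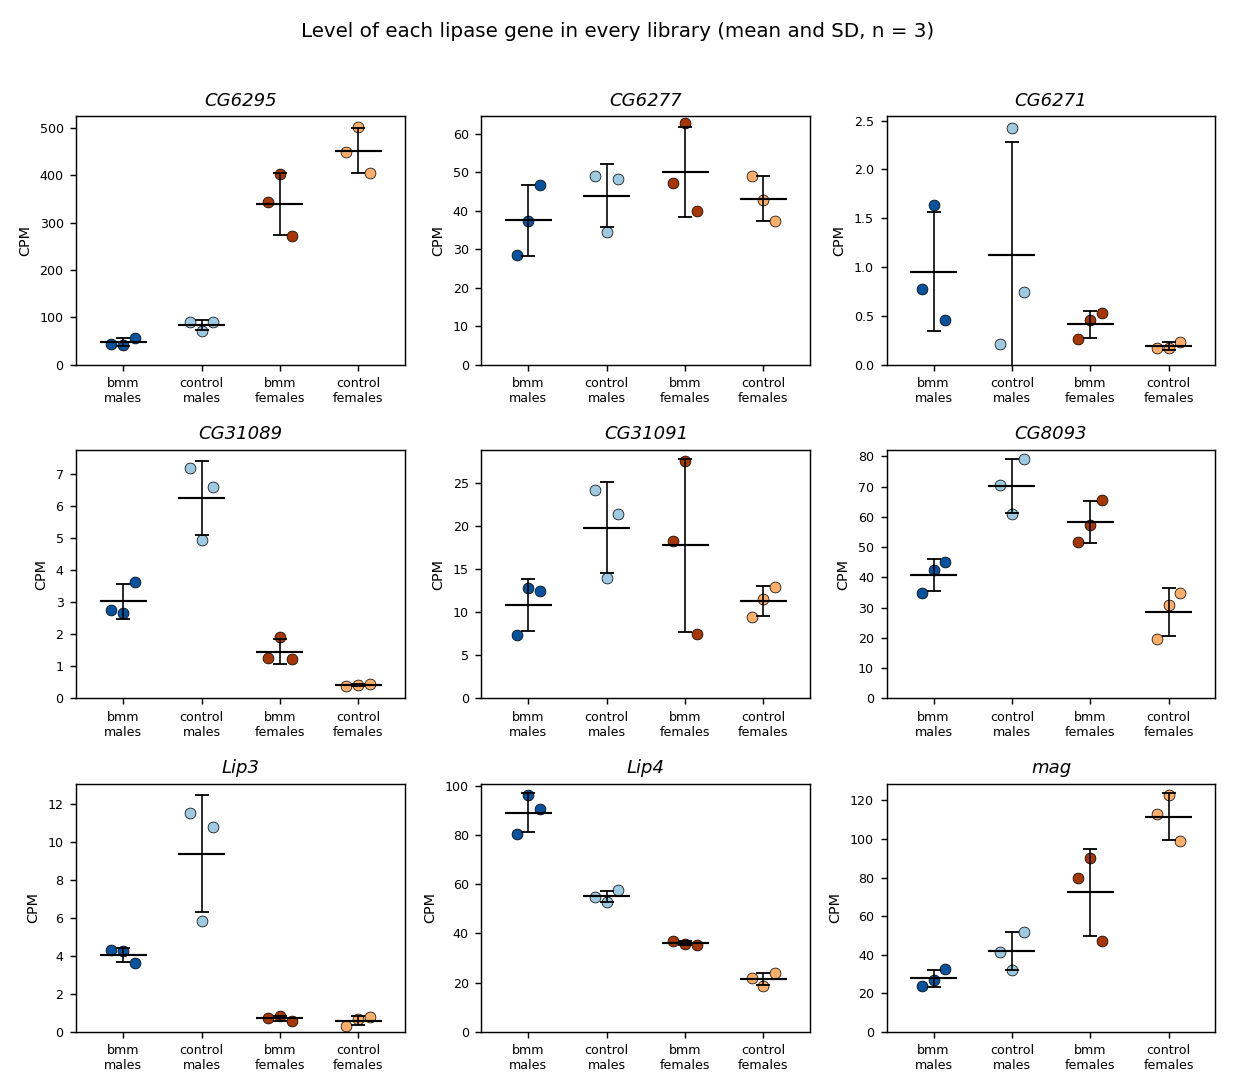
CPM (vertical axis, from 0) of each of the 9 lipase genes in every library (points), with the mean (wide line) and SD (bar) of 3 libraries per group, in *bmm* overexpression and control males and then in *bmm* overexpression and control females. *CG8093* and *CG31089* lie lower with *bmm* overexpression in males and higher in females, *Lip4* lies higher in both sexes, and *CG6295* is several times higher in females than in males. The SD bar of *CG6271* in control males runs below 0 and is hidden there.

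*CG31089* encodes an acid lipase-type enzyme with no assigned substrate, and showed the widest swing between the sexes. *bmm* overexpression males had 2.76, 2.66 and 3.64 CPM, against 7.18, 4.95 and 6.59 CPM in control males. *bmm* overexpression females had 1.24, 1.90 and 1.21 CPM, against 0.37, 0.42 and 0.44 CPM in control females. Libraries of the genotypes did not overlap in either sex, and the 4 groups were all apart from their neighbours, in the order control females, *bmm* overexpression females, *bmm* overexpression males, control males. The log2 fold change was −1.06 (SE 0.20) in males and 1.86 (SE 0.28) in females. The female levels rest on 24 to 58 counts per library with *bmm* overexpression and 11 to 13 in controls. In males the value went under the fold threshold without *bmm* overexpression male replicate 2 (−0.97) or without control male replicate 1 (−0.94). The exons of *CG31089* overlap an RNA on the opposite strand, *asRNA:CR43259*, which averaged 1.83 CPM in *bmm* overexpression males and 1.46 CPM in control males, and 0.41 and 0.33 CPM in females of these genotypes. Whether the counting used strand is not given in the sources used here, so reads of the pair cannot be told apart.

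*CG31091* lies 470 bases upstream of *CG31089* on the same strand of chromosome 3R (*CG31091* at 25899903 to 25902172 and *CG31089* at 25902643 to 25904178, BDGP6.54 annotation). It was the more abundant of the pair, with 7.37, 12.8 and 12.4 CPM in *bmm* overexpression males, against 24.2, 13.9 and 21.5 CPM in control males. All *bmm* overexpression male libraries were below all control male libraries, the nearest pair being 12.8 and 13.9 CPM. *bmm* overexpression females had 18.3, 27.6 and 7.48 CPM, against 9.49, 11.6 and 12.9 CPM in control females, so that replicate 3 of *bmm* overexpression lay below every control and the other replicates above. The log2 fold change was −0.89 (SE 0.25) in males and 0.67 (SE 0.36) in females, neither past both thresholds. Without *bmm* overexpression female replicate 3 it was 1.04 in females and past both, and without control male replicate 2 it was −1.09 in males and past both. *Mco3*, the gene on the other side of *CG31091*, was at 0.57 CPM in *bmm* overexpression males and 0.64 CPM in control males, and its log2 fold change of −0.14 (SE 0.27) had an adjusted p of 0.977 by edgeR's exact test.

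*CG8093*, on chromosome 2R (15214060 to 15215686, minus strand), is another acid lipase-type gene and was at a level where counting error is small, with at least 588 counts in every library. It was at 34.8, 42.5 and 45.0 CPM in *bmm* overexpression males, against 70.5, 61.1 and 79.0 CPM in control males. In females the order was the reverse, with 51.7, 57.4 and 65.5 CPM under *bmm* overexpression, against 19.7, 30.9 and 34.9 CPM in controls. The genotypes did not overlap in either sex. The log2 fold change was −0.80 (SE 0.12) in males and 1.06 (SE 0.18) in females. In females it stood close to the threshold, at 0.96 without *bmm* overexpression female replicate 3 and 0.86 without control female replicate 1, and in both cases it was no longer called.

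*Lip3*, a lipase gene known for its response to feeding state, lies on the minus strand of chromosome 3R (13370240 to 13371904), and its exons overlap those of *CheA87a*. How reads of this overlap were counted is not given in the sources used here, which limits the *Lip3* values. *Lip3* was at 4.31, 4.23 and 3.61 CPM in *bmm* overexpression males, against 11.5, 5.85 and 10.8 CPM in control males. Every *bmm* overexpression male library was below every control male library, although control replicate 2 stood close to them. In females the gene was at 0.73, 0.85 and 0.59 CPM with *bmm* overexpression, against 0.30, 0.70 and 0.77 CPM in controls, and the genotypes overlapped. The log2 fold change was −1.23 (SE 0.25) in males and 0.31 (SE 0.37) in females. The male call was not made by edgeR's quasi-likelihood test of the same counts, which gave −1.23.

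*Lip4* and *mag* went the same way in both sexes. *Lip4*, an acid lipase-type gene known as a target of the starvation-responsive transcription factor FOXO, lies on chromosome 2L (10527572 to 10531778, plus strand). It was at 80.5, 96.1 and 90.7 CPM in *bmm* overexpression males, against 54.9, 52.8 and 57.5 CPM in control males, and at 37.0, 35.7 and 35.5 CPM in *bmm* overexpression females, against 21.8, 18.7 and 23.7 CPM in control females. All libraries of *bmm* overexpression were above all controls of their sex, and the log2 fold change was 0.68 (SE 0.07) in males and 0.78 (SE 0.09) in females. *Lip4* was the only one of the 9 genes whose *bmm* overexpression libraries were all higher in both sexes. It was also the one that varied least between replicates of *bmm* overexpression females, by 2.24% of its mean (coefficient of variation).

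*mag* (*magro*) encodes a lipase that is made in the proventriculus and acts on dietary triacylglycerol and on sterol esters in the gut. It lies on chromosome 3L (20460683 to 20462274, plus strand). It was at 23.6, 27.0 and 32.6 CPM in *bmm* overexpression males, against 41.4, 32.1 and 51.7 CPM in control males, where the highest of the first group and the lowest of the second overlapped. *bmm* overexpression females had 80.0, 90.0 and 47.1 CPM, against 113, 123 and 98.9 CPM in control females, with no overlap. The log2 fold change was −0.60 in both sexes (SE 0.18 in males and 0.19 in females), and it was −0.37 in females without *bmm* overexpression female replicate 3, which stood apart from the other replicates.

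The pancreatic lipase-type genes *CG6295*, *CG6277* and *CG6271* lie on the minus strand of chromosome 3R with their lower ends up to 19.1 kb apart, inside the gene *RYa-R* but outside its exons. *CG6295* (27005899 to 27007055) was at 43.5, 42.2 and 56.5 CPM in *bmm* overexpression males, against 89.3, 71.6 and 90.6 CPM in control males. *bmm* overexpression females had 343, 402 and 272 CPM, against 450, 501 and 405 CPM in control females. The genotypes did not overlap in either sex, though the nearest female libraries were 402 and 405 CPM, and the log2 fold change was −0.83 (SE 0.13) in males and −0.39 (SE 0.12) in females. The egg RNA was taken to come with RNA of whole *bmm* overexpression females, which was not tested. Its share then corresponded to 21.2% of the *CG6295* level in control male replicate 1, and to between 0.961% and 1.61% in *bmm* overexpression males. With female RNA subtracted from the male libraries on this assumption, the male log2 fold change of *CG6295* was −0.73. On the same assumption, the egg RNA share corresponded for the other members to at most 10.9% of the level in any male library (*CG6271*), and to at most 0.351% for *Lip3*.

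*CG6277* (27022071 to 27023217) did not separate the genotypes. It was at 28.5, 37.2 and 46.7 CPM in *bmm* overexpression males, against 48.9, 34.4 and 48.3 CPM in control males, and at 47.2, 62.7 and 39.9 CPM in *bmm* overexpression females, against 49.0, 42.7 and 37.4 CPM in control females. The log2 fold change was −0.24 (SE 0.19) in males and 0.24 (SE 0.14) in females. *CG6271* (27024968 to 27026109) was at 0.77, 1.63 and 0.46 CPM in *bmm* overexpression males and at 0.21, 2.42 and 0.74 CPM in control males, a spread of 11.4 times within the controls, and its log2 fold change of −0.24 (SE 0.77) says little. *bmm* overexpression females had 0.26, 0.46 and 0.53 CPM, against 0.17, 0.17 and 0.24 CPM in control females, on no more than 16 counts.

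Between *CG6295* and *CG6277* lie 15.0 kb with a *roo* mobile element and the related genes *CG17192*, *CG17191* and *CG6283*, and *CG6296* flanks the cluster. *CG6283* averaged 76.4 CPM in *bmm* overexpression males, against 113 CPM in control males, and fell by 0.57 on the log2 scale (SE 0.15, adjusted p = 0.0194, edgeR's exact test). Its means were 46.4 CPM in females with *bmm* overexpression and 47.2 CPM in control females, with a log2 fold change of 0.00 (SE 0.08, adjusted p = 0.996). *CG17192* was nearly all female, with 97.4 CPM in females with *bmm* overexpression and 141 CPM in females without it, against 0.96 and 1.25 CPM in males of these genotypes, and its log2 fold change of −0.51 in females (SE 0.19) had an adjusted p of 0.0645. *CG17191* averaged 0.15 CPM in *bmm* overexpression males, 0.32 CPM in control males, 0.14 CPM in females with *bmm* overexpression and 0.09 CPM in control females, too few to be tested. *CG6296* did not pass the test in either sex. In males the log2 fold change was below 0 for the 5 genes tested from *CG6295* to *CG6271*, of which *CG6295* and *CG6283* passed the adjusted p. In females it was below 0 for *CG6295* and *CG17192*, close to 0 for *CG6283* and above 0 for *CG6277*.

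**Figure D2:**
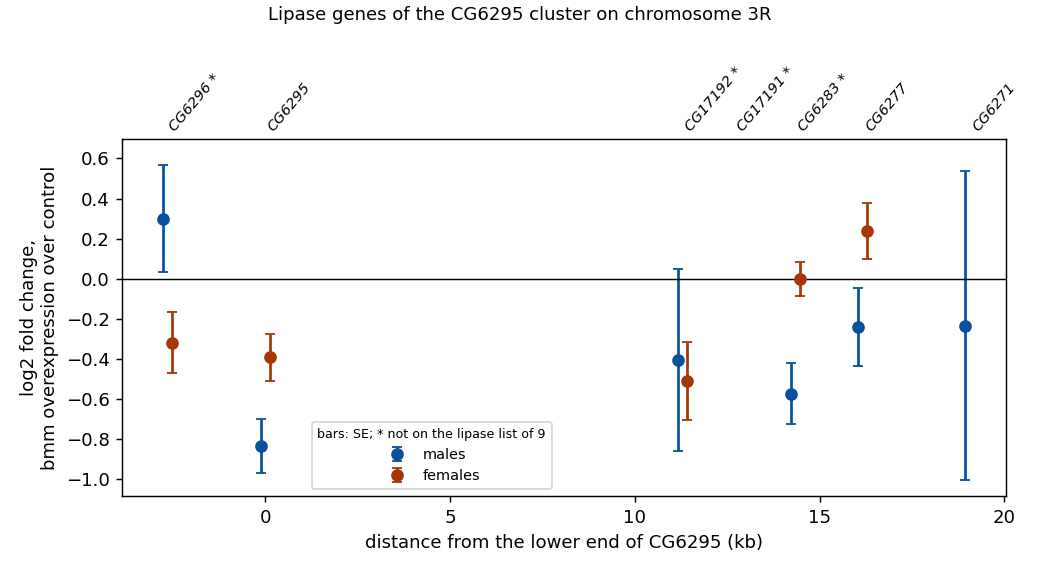
Log2 fold change of *bmm* overexpression over control (vertical axis; points, with SE as bars) in males and in females, for the lipase genes of the cluster, by the distance of their lower end from that of *CG6295* in kb (horizontal axis). *CG6295* is at −0.83 in males and −0.39 in females, and *CG6277*, 16.2 kb away, at −0.24 in males and 0.24 in females. Genes marked with an asterisk are not among the 9, and *CG17191* was not tested.

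The difference of the male and the female response was fitted over the 4 groups together (edgeR's quasi-likelihood test), for which 2.91% of 13988 genes passed an adjusted p of 0.05. Of the 9 members, *CG31089* and *CG8093* passed, both with a response less positive in males, and since the list was chosen on these contrasts nothing is read from that count. The difference (male response minus female response, log2 scale) was −2.96 (SE 0.35) for *CG31089* and −1.89 (SE 0.25) for *CG8093*. For *CG31091* and *Lip3* it was −1.59 (SE 0.52) and −1.58 (SE 0.50), neither past the threshold. *CG31091* passed without *bmm* overexpression female replicate 3 (−1.91) and *Lip3* without control male replicate 2 (−1.76). The difference was −0.52 (SE 0.28) for *CG6277*, −0.48 (SE 0.21) for *CG6295*, −0.13 (SE 0.12) for *Lip4* and −0.04 (SE 0.30) for *mag*. For the scarce *CG6271* it was −1.37 (SE 1.16), which was also the median of the 9, against −0.07 over all genes, so that the median rests on a gene with a wide error. Of all calls in this fit, 9.83% were more positive in males, and 22.1% with size factors of the DESeq2 kind in place of TMM, under which the members called were again *CG31089* and *CG8093*.

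**Figure D3:**
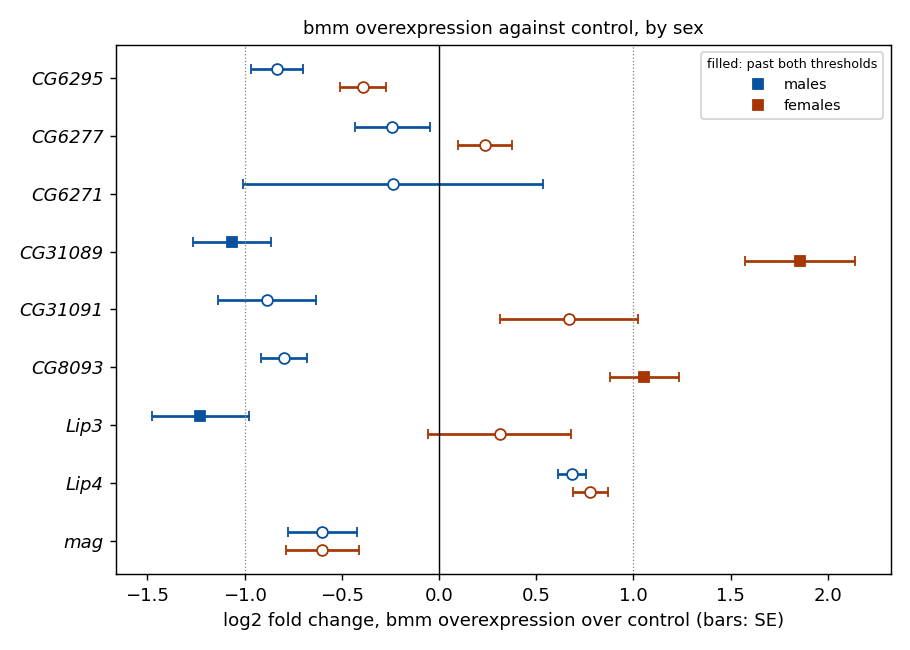
Log2 fold change of *bmm* overexpression over control (horizontal axis; bars, SE) of each lipase gene in males (upper mark) and females (lower mark). Filled squares mark values past both thresholds, and dotted lines mark a log2 fold change of 1 in either direction. Male values lie left of 0 except for *Lip4*, and female values right of 0 except for *CG6295* and *mag*.

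Most genes of the fly differed between the sexes, so the counts of lipase genes that did are given as a description only. In control flies 7 of the 9 were past both thresholds between males and females by edgeR's quasi-likelihood test, 5 higher in males and 2 lower, where 68.6% of all genes were called. One of the 7, *CG6271*, was no longer called without control male replicate 2 (log2 fold change 1.26, against 2.45 with it). This gene was too scarce to be tested within females and entered the fit through its male level, and its control libraries overlapped between the sexes. *Lip3* and *CG31089* were 15.9 and 15.3 times higher in control males than in control females by their mean CPM, and *CG6295* and *mag* were 5.39 and 2.67 times lower in males. *Lip4* was 2.57 and *CG8093* 2.46 times higher in control males. *CG6277* did not separate the sexes in control flies (log2 fold change 0.03, SE 0.20), and its sign there turned with some of the alternatives.

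With *bmm* overexpression 4 of the 9 genes were called between males and females, 2 higher and 2 lower, where 66.8% of all genes were called. *Lip3* was then 5.60 and *Lip4* 2.47 times higher in males, and *CG6295* and *mag* 7.15 and 2.61 times lower. *CG31089* was 2.08 times higher in *bmm* overexpression males than in *bmm* overexpression females, with a log2 fold change of 0.97 (SE 0.22), just under the threshold, against 3.93 (SE 0.25) in controls. *CG8093* was lower in males than in females with *bmm* overexpression, at a log2 fold change of −0.59 (SE 0.18), against 1.30 (SE 0.18) in controls. The contrasts of males over females share their libraries with the contrasts of genotype, so that they restate the same values from the other side. The median log2 fold change of all genes between the sexes was 0.54 in controls and 0.43 with *bmm* overexpression, and other scaling factors raised it by between 0.15 and 0.26, so that the sex differences of single genes are to be read relative to it.

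**Figure D4:**
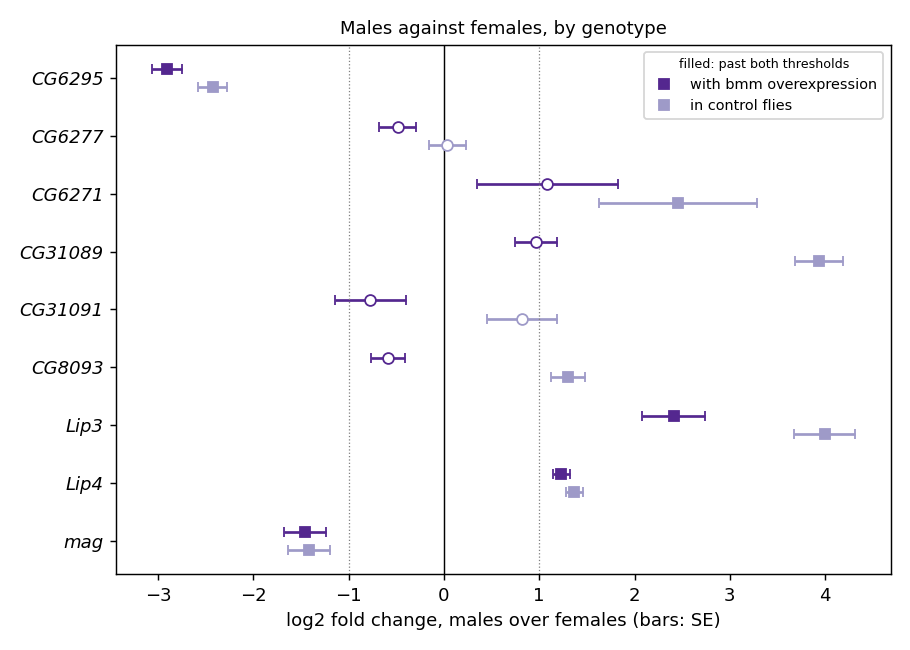
Log2 fold change of males over females (horizontal axis; bars, SE) of each lipase gene with *bmm* overexpression (upper mark, dark) and in control flies (lower mark, light). Filled squares mark values past both thresholds. *CG31089* stands at 0.97 with *bmm* overexpression and 3.93 in controls, and *CG8093* at −0.59 and 1.30, while *Lip4* and *mag* hold nearly the same place in both genotypes.

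The summed CPM per kb of the 9 genes was 171 ± 23.9 in *bmm* overexpression males, against 235 ± 33.6 in control males, and 469 ± 87.1 in *bmm* overexpression females, against 563 ± 52.0 in control females (SD, n = 3 each). The lowest control male library had 197.0 and the highest *bmm* overexpression male library 195 CPM per kb, so that these groups were just apart, and in females the genotypes overlapped. In *bmm* overexpression females replicate 3 was the lowest of its group for 7 of the 9 genes, and replicate 2 the highest for 6. In control males replicate 2 was the lowest for 8 of the 9. Low and high values of the members thus fell on the same libraries in these groups.

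Some genes that mark the midgut were higher in *bmm* overexpression females, as were *CG8093* and *CG31089*. The list of midgut identity genes and the lists that follow were chosen with earlier results of these data known. Their counts and adjusted p-values therefore describe the lists and are no independent test. Of 13 midgut identity genes (transcription factors and structural genes of the gut epithelium), 6 rose in *bmm* overexpression females and none fell by the adjusted p alone (edgeR's exact test), which 14.2% of all genes passed in either direction, and none of the 13 was past the fold threshold too. Those that rose included *mex1*, a gene of the brush border, at 27.4 CPM against 15.1 CPM in controls (log2 fold change 0.89, SE 0.12, adjusted p = 5.7e-10), and *Ssk*, *mesh* and *Tsp2A*, whose products form the smooth septate junctions of the gut. *Ssk* was at 67.3 CPM in *bmm* overexpression females, against 39.8 CPM in control females (0.78, SE 0.13, adjusted p = 1.5e-06). In males, where 4.31% of all genes passed the adjusted p, none of the 13 rose and *Myo31DF* fell, to 112 CPM in *bmm* overexpression males, against 149 CPM in control males (−0.42, SE 0.07, adjusted p = 0.00196). The median log2 fold change of the list was −0.20 in males and 0.32 in females. The response of 5 of the 13, *mex1*, *Myo61F*, *Myo31DF*, *mesh* and *Ssk*, was less positive in males by the quasi-likelihood test of the difference, as for 2.62% of all genes. No midgut identity gene was at 0 in any library.

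The summed CPM of the midgut identity genes was between 526 and 623 in *bmm* overexpression males, against 605 and 871 in control males, and between 664 and 844 in *bmm* overexpression females, against 542 and 629 in control females. It was highest in *bmm* overexpression female replicate 3, the library in which most of the lipases were lowest, and in control male replicate 2, again a library with low lipases. The sum of 36 midgut digestive enzymes was between 5965 and 6210 CPM in *bmm* overexpression males, against 6482 and 7428 in control males, and between 10216 and 13028 CPM in *bmm* overexpression females, against 11995 and 13050 in control females. By the adjusted p alone, 3 of the 34 digestive enzyme genes tested in males rose and 7 fell, where 4.31% of all genes passed, and of 36 in females 12 rose and 3 fell, where 14.2% passed. By both thresholds, 4 of 36 were called in females (*LysX*, *Mal-A7*, *Mal-A8* and *Mal-B1*) and 2 of 34 in males (*Jon25Bi* and *Mal-B1*). All of these were higher, where 1.22% of all genes in females and 0.249% in males were called higher. The maltase gene *Mal-A7* was at 96.4 CPM in *bmm* overexpression females, against 46.8 CPM in control females (log2 fold change 1.07, SE 0.08, adjusted p = 9e-26), and at 311 CPM in *bmm* overexpression males, against 431 CPM in control males (−0.48, SE 0.16, adjusted p = 0.124). The part of the amount of gut tissue in the lipase values was not tested.

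**Figure D5:**
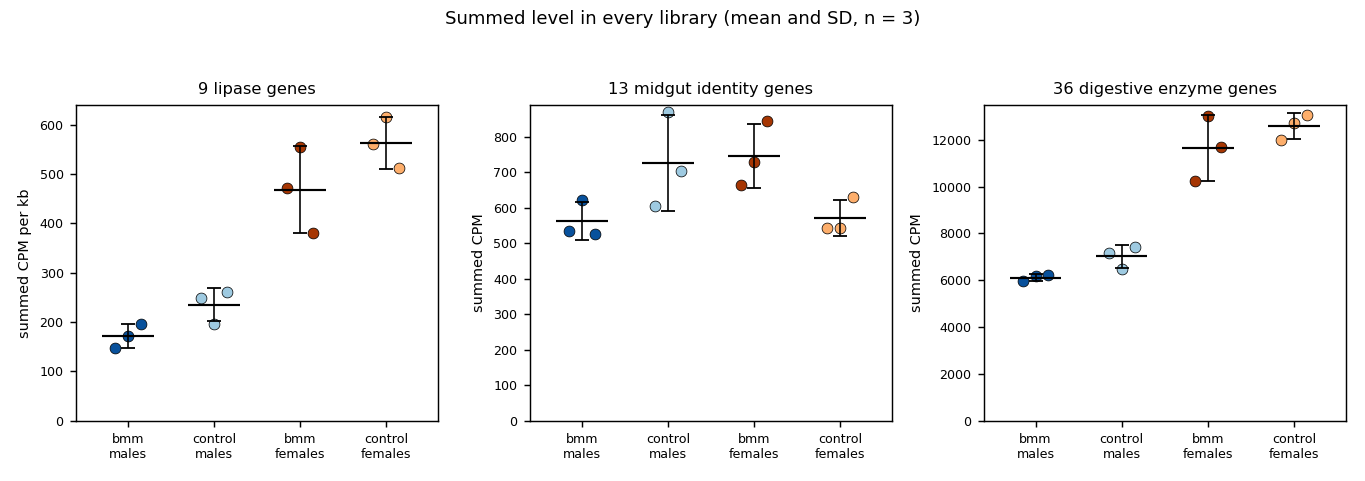
Summed level in every library (points), with the mean (wide line) and SD (bar) of 3 libraries, for the 9 lipase genes in CPM per kb (left), 13 midgut identity genes in CPM (middle) and 36 digestive enzyme genes in CPM (right). The midgut identity sum is at 664 to 844 CPM in *bmm* overexpression females, above 542 to 629 CPM in control females, whereas the lipase sums of these groups overlap.

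Among other genes of dietary lipid handling, those called in males were not those called in females. On a list of 21 genes for uptake, export and their regulators, 2 of 21 tested were called in females, both higher, where 1.22% of all genes were called higher, and 2 of 20 in males, both higher, where 0.249% were. In females *Npc2c* and *Npc2e*, secreted sterol-binding proteins of the NPC2 family, were at 6.32 and 16.3 CPM with *bmm* overexpression, against 3.10 and 7.96 CPM in controls (log2 fold change 1.05, SE 0.22, adjusted p = 0.000162, and 1.07, SE 0.24, adjusted p = 0.000688, edgeR's exact test). In males *Dgat2* and *CG1941*, acyltransferases of the family that makes triacylglycerol, were at 14.0 and 32.7 CPM with *bmm* overexpression, against 3.90 and 11.5 CPM in controls. Their log2 fold changes were 1.83 (SE 0.11, adjusted p = 1e-27) and 1.50 (SE 0.12, adjusted p = 1e-20). The responses of *Dgat2* and *CG1941* differed between the sexes by the quasi-likelihood test (1.63 and 1.36, adjusted p = 0.00609 and 0.00133), and those of the *Npc2* genes did not pass it. The median log2 fold change of the list was −0.03 in males and 0.07 in females. This list too was chosen with earlier results of these data known, so these values are a description.

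The list of relatives held 44 further genes of secreted lipase type, and was likewise chosen with earlier results of these data known. In males 38 of them were tested and 2 were called, both higher, where 1.5% of all genes were called and 0.249% called higher. In females 24 were tested and 1 was called, higher, where 1.41% were called and 1.22% called higher. *CG5966*, a pancreatic lipase-type gene, was at 121, 165 and 95.1 CPM in *bmm* overexpression males, against 57.3, 50.5 and 54.8 CPM in control males (1.21, SE 0.17, adjusted p = 4.5e-08), and it rose less in females, to 53.6 CPM against 42.0 CPM in controls (0.38, SE 0.06, adjusted p = 2.2e-05). Its difference between the sexes had an adjusted p of 0.0648, and without *bmm* overexpression male replicate 2 the male value was 0.99. *CG10357* was at 4.31, 2.33 and 3.02 CPM in *bmm* overexpression males, against 1.46, 1.12 and 1.52 CPM in control males (1.21, SE 0.27, adjusted p = 0.00307), and was no longer called without *bmm* overexpression male replicate 1 (0.94, adjusted p = 0.0505), by edgeR's quasi-likelihood test (adjusted p = 0.0656) or by limma-trend with a pseudocount of 0.5 or 1 (adjusted p = 0.0602 or 0.0639).

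*CG7367*, another pancreatic lipase-type gene, was higher in females and lower in males with *bmm* overexpression, as was *CG31089*, and at a lower mean level than that gene in every group. It was at 0.73, 0.62 and 0.82 CPM in *bmm* overexpression females, against 0.13, 0.21 and 0.27 CPM in control females (log2 fold change 1.83, SE 0.37, adjusted p = 0.000171, edgeR's exact test). *bmm* overexpression males had 1.48, 1.69 and 1.72 CPM, against 2.18, 2.27 and 2.45 CPM in control males (−0.50, SE 0.17, adjusted p = 0.258). The libraries did not overlap in either sex, as for 22.8% of all genes in males and 35.1% in females. Among the 9 lipases the genotypes were apart for 6 genes in males (5 lower, 1 higher) and 6 in females (4 higher, 2 lower). The 4 include *CG6271*, which was too scarce to be tested in females, whereas the shares cover tested genes only. Since the list was chosen on these contrasts, nothing is read from these counts. The male minus female response of *CG7367* was −2.37 (SE 0.33, adjusted p = 0.00538), the only one of 38 relatives to pass that test.

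Many of the relatives were at far higher levels in males. In control flies 26 of 38 were called higher in males and 3 lower. Of all genes, 44.9% were called higher in males and 23.7% lower, or 68.6% in either direction. Of the 44 relatives, 24 passed the filter in females and 38 in males. Some thus entered this contrast only through their male level, and nothing is read from the count. The most abundant relatives, *CG17097* and *CG31872*, were at 1778 and 1052 CPM in control males and at 0 and 0.01 CPM in control females. Their log2 fold changes with *bmm* overexpression in males were 0.15 (SE 0.09, adjusted p = 0.737) and 0.03 (SE 0.11, adjusted p = 0.993).

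Over all 12 libraries, the genes whose log2(CPM + 1), centred on its mean, differed least from that of a called member were named for each. Of 12064 genes with a mean of at least 1 CPM, those nearest to *CG31089* were *CG32335*, *CG34316* and *CG31104*, at a root mean square difference of 0.23, 0.24 and 0.25. Those nearest to *CG8093* were *CG32054*, *CG33346* and *CG15422*, at 0.29, 0.30 and 0.31. *CG32054* was at 8.74 CPM in *bmm* overexpression males, 12.5 CPM in control males, 11.6 CPM in females with *bmm* overexpression and 7.20 CPM in control females, which is the crossing pattern of *CG8093*. Those nearest to *Lip3* were *CG43139*, *CG13559* and *CG32413*, at 0.25, 0.30 and 0.30, all of them low in females.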

How the data were processed

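RNA-seq of whole flies was analysed in 12 libraries (4 groups of 3). The authors made stranded mRNA libraries, aligned reads to BDGP6.28 with HISAT2, removed alignments with a mapping quality under 60 and counted genes with featureCounts. Tool versions and the strand setting are not given in the sources used here. The authors deposited raw counts per gene symbol, which entered every edgeR (4.0.16) and DESeq2 (1.42.0) fit. They also deposited a signal called CPM, the count divided by 1 factor per library, which was used for levels and for limma (3.58.1).

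Groups and replicate numbers came from the labels. Within each sex, counts were filtered with filterByExpr, scaled by TMM and tested with the exact test of edgeR, p-values being adjusted by Benjamini and Hochberg's method over all genes tested; the study's methods name these steps, except TMM and the fit by sex. SE came from edgeR's quasi-likelihood fit. The sex contrasts and the difference of the responses used that fit over all libraries. Replicates differed by more than sampling noise. Nothing says that they came from separate cultures, so p-values measure the spread between these samples. Scripts were tested on simulated data.

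The members and lists (midgut identity, midgut digestive enzymes, fat body, egg, male accessory gland, testis, dietary lipid handling, lipid droplet and lysosomal lipases, secreted lipase relatives) were chosen with earlier results of these data known. Named genes were all members, called relatives, genes of the lists reported, and the 3 genes nearest to each called member by log2(CPM + 1). Relatives came from a list written by hand from knowledge of the gene family, and protein and promoter sequences were not used here. *CG17097*, *CG31872* and the neighbours of the clusters were chosen with their values in view. Gene positions are those of the BDGP6.54 annotation, which matched 17019 of 17807 symbols. Of the lists not described in the report, 2 of 9 fat body genes were called lower in males (*Lsp2*, *Lsp1alpha*) and 0 of 6 were called in females. In males 0 of 18 accessory gland and 0 of 14 testis genes were called, and in females 0 of 24 egg genes. On the lipid droplet and lysosomal list of 7 genes, *bmm* was called higher in both sexes and *CG5966* in males. Of all genes tested, 1.25% were called lower and 0.249% higher in males, and 1.41% were called in females (1.22% higher).

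Female replicates of the same number deviated together (correlations of 0.33, 0.21 and 0.40 over 8886 genes). Male ones did not (0.01, 0.13 and −0.04). Libraries of different numbers were not compared, so a pairing is not shown, and the main test within a sex used none. Alternatives were edgeR's quasi-likelihood test, DESeq2, other scaling, no filter, limma-trend on log2(CPM + 1) and log2(CPM + 0.5), subtraction of female RNA from male libraries, the replicate block and leaving out each library.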

Additional observations from a re-analysis of the deposited data

Results flagged for a closer look

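The response of *CG31089* to *bmm* overexpression differed between the sexes by edgeR's quasi-likelihood test, with a male minus female response of −2.96 on the log2 scale (lower in all 3 libraries in males and higher in all 3 in females). The same test singled out *CG8093*, with −1.89, whose libraries were likewise apart in opposite directions. Both values come from contrasts on which the list of genes was chosen, and their adjusted p-values are therefore not given. Over the alternatives tried, the difference lay between −3.11 and −2.64 for *CG31089* and between −1.99 and −1.62 for *CG8093*. The summed level of the midgut identity genes was also higher in *bmm* overexpression females than in control females, and overlapped between genotypes in males. Within *bmm* overexpression females it was highest in replicate 3, the library with the highest *CG8093* and the lowest *CG31089*. Its part in the difference was not tested.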

How the results depend on the processing

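Of the members called, *CG8093* and *CG31089* in females and *CG31089* in males lost the call under limma-trend on the scaled counts, and *Lip3* in males under limma-trend, the quasi-likelihood test and the replicate block. *CG7367* in females and *CG10357* in males lost it under limma-trend, and *CG10357* under the quasi-likelihood test. DESeq2 gave no adjusted p for *CG31089* and *CG7367* in females. No called value changed sign. The uncalled log2 fold change of *CG6271* in males lay between −0.86 and 1.01 over single libraries left out. Counts of genes called moved more. In females 148 became 95 with DESeq2, and 20 or 19 with limma-trend (pseudocount 0.5 or 1). In males 205 became 59 with the quasi-likelihood test, 112 with female RNA subtracted, 55 or 36 with limma-trend (0.5 or 1). For the difference of responses, 407 became 738 with DESeq2. Leaving out 1 library gave 116 to 192 in females, 145 to 307 in males, 61 to 568 for the difference, 9542 to 9783 between control males and females, and 9223 to 9445 with *bmm* overexpression. The causes were not tested.

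With the replicate block, 135 genes were called in females, where libraries of the same number deviated together, and it changed no member's call there. In males, where the libraries share only a number, the block gave 120, and for the difference of responses 618. Between the sexes it gave 9595 in controls and 9333 with *bmm* overexpression. The female levels of *CG6271* and *CG31089* rest on 5 to 58 counts per library, which limits their precision, and *CG6271* was too scarce to be tested in females.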
